A study of Homo sapiens with 6 samples.

Results

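The transcriptome of U87 cells in the control state was described from the 3 libraries titled control, chosen by their titles from 6 libraries in the series. U87 is an established human glioma cell line that grows attached and spindle-shaped in culture. The labels give the control cells as wild type with the treatment "no", grown in serum-containing medium, while a treatment protocol given in the same words for every library describes transfection of small interfering RNA with lipofectamine. Whether the controls received the reagent or a non-targeting RNA is therefore unclear. The labels also do not say that the libraries came from separate cultures, so the spread between them may be technical. The other libraries, from cells given a small interfering RNA against RBM47, were not used. Levels are FPKM (fragments scaled to gene length and to sequencing depth), which allow genes of different length to be compared, and 3 values in a row are control replicates 1, 2 and 3 in that order.

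Glioma cells in the brain keep features of glia, the support cells of neurons, which make the intermediate filament protein GFAP and take up glutamate. Lines kept in serum often lose these features and make the filament vimentin, matrix proteins and adhesion proteins that connective tissue cells also make. Growth of such cells is driven by receptor tyrosine kinases at the cell surface and is held back by tumour suppressors that act on the cell cycle and DNA repair.

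The promoters of 4 genes at different points of the range are shown first, as the 250 bases before the start of the gene, from RefSeq on GRCh38.p14, with every CG pair and the motif TATAAA in capitals. TMSB10 had the highest level of all genes, MT2A was among the 20 highest and uneven between libraries, SERPINB2 was among the protein-coding genes with the widest spread, and MGMT was silent. They lie at chr2:84905406-84905655, chr16:56608334-56608583, chr18:63887455-63887704 and chr10:129466991-129467240, all on the plus strand, and the set was chosen after the levels were seen.
TMSB10: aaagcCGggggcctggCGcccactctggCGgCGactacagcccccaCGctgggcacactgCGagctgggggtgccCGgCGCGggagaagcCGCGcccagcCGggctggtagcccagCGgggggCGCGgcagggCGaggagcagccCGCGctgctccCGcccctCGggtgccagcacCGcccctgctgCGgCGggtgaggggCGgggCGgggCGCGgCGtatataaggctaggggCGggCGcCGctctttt
MT2A: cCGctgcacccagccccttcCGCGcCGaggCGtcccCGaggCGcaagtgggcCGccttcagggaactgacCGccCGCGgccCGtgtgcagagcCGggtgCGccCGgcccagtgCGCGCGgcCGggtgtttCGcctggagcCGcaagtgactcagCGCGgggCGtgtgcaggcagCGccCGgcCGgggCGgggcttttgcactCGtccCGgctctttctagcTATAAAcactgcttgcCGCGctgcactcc
SERPINB2: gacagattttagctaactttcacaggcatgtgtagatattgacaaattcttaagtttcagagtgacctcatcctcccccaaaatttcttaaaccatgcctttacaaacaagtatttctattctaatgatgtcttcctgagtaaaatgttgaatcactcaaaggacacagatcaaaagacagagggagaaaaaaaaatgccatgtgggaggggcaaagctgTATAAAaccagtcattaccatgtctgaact
MGMT: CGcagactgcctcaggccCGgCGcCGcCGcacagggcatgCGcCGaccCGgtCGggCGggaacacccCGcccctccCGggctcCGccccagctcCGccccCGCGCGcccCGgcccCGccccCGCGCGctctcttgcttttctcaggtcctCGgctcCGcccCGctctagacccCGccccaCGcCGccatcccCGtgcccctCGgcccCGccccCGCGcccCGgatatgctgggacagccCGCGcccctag

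These windows held 31 CG pairs in TMSB10, 32 in MT2A, 0 in SERPINB2 and 36 in MGMT, so the silent MGMT and the abundant TMSB10 were alike in this feature. TATAAA was found in MT2A and SERPINB2, where it began 29 and 30 bases before the start, and was absent on both strands of the other windows. On either strand it was present in 11.1% of all 27305 windows of the same length in the RefSeq table, whose median was 11 CG pairs. Of all protein-coding genes 77.8% had a window, of the expressed ones 82.2% and of the silent ones 71.7% (4254 of 5937). A comparison of the classes, which are defined below, is therefore limited to genes with a window and misses more of the silent ones. Among genes with a window the median was 22 CG pairs for expressed, 15 for low or variable and 6 for silent genes. TATAAA on either strand was present in 4.92%, 9.12% and 16.4% of them. Within the expressed genes with a window, it was present in 10.9% of those with a median of 100 FPKM and over. The share was 14.7% for expressed genes at least 4-fold apart between libraries. MGMT, with 36 CG pairs, was thus unlike most silent genes.

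Before any level is read, the libraries have to be set side by side, because control replicate 3 stood apart. Total counts were 15580000, 17640000 and 18130000, rounded. After scaling to a common library size (CPM with TMM factors), control replicates 1 and 2 lay within 25% of each other (the higher at most 25% above the lower) for 86.5% of expressed genes, against 35.9% for replicates 1 and 3 and 39.5% for replicates 2 and 3. The common biological coefficient of variation, edgeR's estimate of the spread beyond counting error, was 0.298 over the 3 libraries and 0.0918 for replicates 1 and 2 alone. RBM47, the gene targeted in the other libraries, was low in the controls, at 0.188, 0.2001 and 0.660 FPKM, with replicate 3 the highest. A median or an SD over the 3 libraries therefore mixes a close pair with a distant library, and each level below is given per library where a result turns on it.

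**Figure D1:**
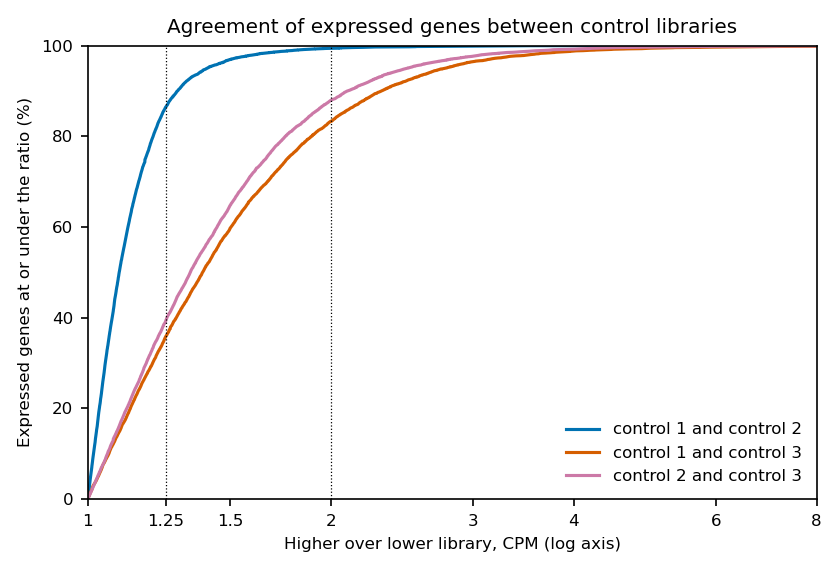
Cumulative share of expressed genes (vertical axis, percent) at or under a given ratio of the higher to the lower library in CPM (horizontal axis, log scale), for each pair of control libraries, with dotted lines at the limits for agreement (25% above the lower library) and for a 2-fold difference. The curve of control replicates 1 and 2 reaches 86.5% at the first limit, while both curves with replicate 3 are under 40% there.

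A gene was called expressed at an FPKM of at least 1 in all 3 libraries and silent at an FPKM under 0.1 in all 3, and the rest were called low or variable. At this depth an FPKM of 1 corresponds to 16 to 20 counts per kilobase. Of 57905 genes, 10647 were expressed and 37096 silent, and 11086 were expressed in replicates 1 and 2 when replicate 3 was left out. Among 19263 protein-coding genes 9569 were expressed (49.7%) and 5937 silent (30.8%), and these shares are the background for every list below. Protein-coding genes took 96.6%, 97.0% and 96.6% of the counts. Expressed genes of other kinds were 247 processed pseudogenes, 213 antisense genes and 178 long intergenic RNAs, and the library kit keeps no strand information, so reads of antisense genes cannot be told apart from those of their partners. By median FPKM, 31 genes reached 1000 or more and 442 lay between 100 and 1000.

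The most abundant messages were those of actin-binding and carbohydrate-binding proteins, iron storage, glycolysis and the mitochondrial genome. TMSB10, an actin-sequestering thymosin, had the highest median, at 10706, 8719 and 3664 FPKM. Control replicate 3 was the lowest for it, with a ratio of highest to lowest library of 2.88 in CPM. FTL, the ferritin light chain that stores iron, was at 4555, 4537 and 3658 FPKM and LGALS1, the lectin galectin-1, at 4696, 3959 and 2611. The calcium-binding S100A6 was at 3693, 2941 and 1773 FPKM. Replicate 3 was again the lowest library for each of them.

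Glycolytic and cytoskeletal messages lay in the same range. GAPDH was at 2870, 2937 and 2314 FPKM, the glycolytic enolase ENO1 at 2104, 2085 and 1912 and beta-actin, ACTB, at 2136, 1944 and 2001. The ratio of highest to lowest library was 1.08 for ENO1 and 1.10 for ACTB, against 1.23 for FTL, and GAPDH just missed the 25% limit for agreement. MT2A, a metallothionein that binds zinc and copper, was at 3490, 2739 and 997 FPKM, a ratio of 3.45. Genes such as these have near-identical copies or processed pseudogenes, and how reads that fit several places were counted is not given in the sources used here.

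Of the 20 highest genes, 12 belonged to the mitochondrial genome, which encodes subunits of the respiratory chain with its own ribosomal and transfer RNAs. MT-CO1, MT-CO2 and MT-CO3, subunits of cytochrome c oxidase, were at 8874, 6920 and 5153, at 10561, 8114 and 5517 and at 9613, 7478 and 4427 FPKM. Each was highest in replicate 1 and lowest in replicate 3. The mitochondrial genome took 5.74%, 4.59% and 3.53% of the counts, and 18.8%, 15.9% and 12.4% of the summed FPKM. MT-RNR2, the large mitochondrial ribosomal RNA, did not follow this order, at 4260, 3068 and 4258 FPKM. MT-TN and MT-TC, transfer RNAs encoded on the strand opposite to most mitochondrial genes, were at 6104, 4523 and 1683 and at 3047, 2548 and 599 FPKM. As the kit keeps no strand information, reads of RNA from the opposite strand cannot be told apart from those of the 2 transfer RNAs. Very short genes such as these get a high FPKM from few counts (6637, 5786 and 2349 for MT-TN). Besides the mitochondrial RNAs MT-RNR2, MT-TN, MT-TC and MT-TP, the highest gene not coding for protein was the pseudogene RPL39P3, at 1298, 1122 and 515 FPKM.

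The transcriptome was concentrated in few genes, and to a different degree per library. The 100 highest genes of each library took 43.3%, 40.0% and 34.8% of the summed FPKM (39.4 ± 4.33%, SD, n = 3). It took 169, 218 and 338 genes to reach the middle of the summed FPKM. Replicate 3 was the least concentrated library.

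The labels call the cells glioma cells, and the neural marker lists were checked first. Of 12 astrocyte markers, 5 were expressed (41.7%, against 49.7% of all protein-coding genes) and 6 silent. GFAP, the defining astrocyte filament (ENSG00000131095, GRCh38 chromosome 17, 44903161 to 44916937, minus strand), was at 0.0552, 0.216 and 0.241 FPKM, from 5, 23 and 28 counts. No library reached 1 FPKM for it, and 18.4% of its exon length is overlapped by genes on the opposite strand. AQP4, the water channel of astrocyte endfeet, had 0 counts in all 3 libraries, which allows up to 3 counts or 0.0321, 0.0273 and 0.0250 FPKM. S100B had 0, 1 and 0 counts. The expressed astrocyte markers were the gap junction protein GJA1 at 71.1, 76.6 and 405 FPKM, the aldolase ALDOC at 46.6, 50.7 and 74.4, the glutamine synthetase GLUL at 12.98, 12.6 and 27.8, the transcription factor SOX9 at 5.37, 4.80 and 6.13 and the glutamate transporter SLC1A3 at 4.85, 4.14 and 8.82. All 5 were highest in replicate 3, and 3 of them differed at least 2-fold between libraries, against 18.3% of all expressed genes. Of all expressed genes that differed that much, 42.7% were highest in replicate 3. That share is a background for those 3 and not for ALDOC and SOX9, which differed less. The summed FPKM of the astrocyte list was 141, 149 and 523, most of the last from GJA1. The 5 expressed markers are also made by many other cells, and in RNA of a whole culture a marker carried by fewer cells cannot be told apart from less RNA per cell.

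Markers of neural stem cells were few and low. Of 12 listed, 3 were expressed, namely the filament NES at 2.45, 2.54 and 2.37 FPKM, the transcription factor OLIG2 at 1.76, 2.08 and 2.47 and PAX6 at 1.45, 1.61 and 1.63. SOX2, which marks neural stem cells, was at 0.187, 0.523 and 0.313, and PROM1, MSI1, DLL3 and HES5 were silent. At a threshold of 2 FPKM in place of 1, 1 of the list was expressed. In the oligodendrocyte list 2 of 10 were expressed, CNP at 16.1, 17.3 and 9.69 FPKM and the proteoglycan CSPG4 at 12.7, 11.5 and 6.93, and 7 were silent, among them MBP, MOG and MAG. OLIG1, the neighbour of OLIG2 in sequence and on the chromosome, had 0 counts in every library. Of 13 measured neuron markers 3 were expressed, the synaptic vesicle fusion protein SNAP25 at 3.94, 4.73 and 3.52 FPKM, the adhesion molecule NCAM1 at 2.98, 3.42 and 4.25 and GAD1, which makes GABA, at 2.09, 1.74 and 1.22. RBFOX3, SYT1, NEFM and DCX were silent.

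The mesenchymal and fibroblast list was the lineage list with the largest expressed share, 14 of 16, where the background is 49.7%. The list does not by itself set connective tissue cells apart from other cells that make these genes. VIM, vimentin (ENSG00000026025, chromosome 10, 17228259 to 17237593, plus strand), was at 987, 769 and 560 FPKM. Genes on the other strand cover 24.4% of the exons of VIM. SPARC, a matrix glycoprotein, was at 134, 146 and 495 FPKM and COL1A1, a chain of type I collagen, at 58.4, 57.7 and 178. Fibronectin, FN1, was at 109, 112 and 176 FPKM and the matrix protein TNC at 106, 105 and 120. VIM was lowest in replicate 3 while SPARC, FN1 and COL1A1 were highest there. Among expressed genes of this list 8 of 14 differed at least 2-fold between libraries, all 8 highest in replicate 3, where the background share past that ratio is 18.3%. Of all expressed genes past that ratio, 833 of 1949 (42.7%) were highest in replicate 3. The contractile actin ACTA2 was at 4.37, 3.94 and 28.1 FPKM and the proteoglycan LUM at 5.07, 5.995 and 28.7. THY1, a fibroblast surface protein, was silent with 0, 2 and 2 counts, and the fibrillar collagen COL3A1 was low at 0.0690, 0.0335 and 0.292 FPKM. The direction in replicate 3 was not tested against any property of the cells or the RNA.

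**Figure D2:**
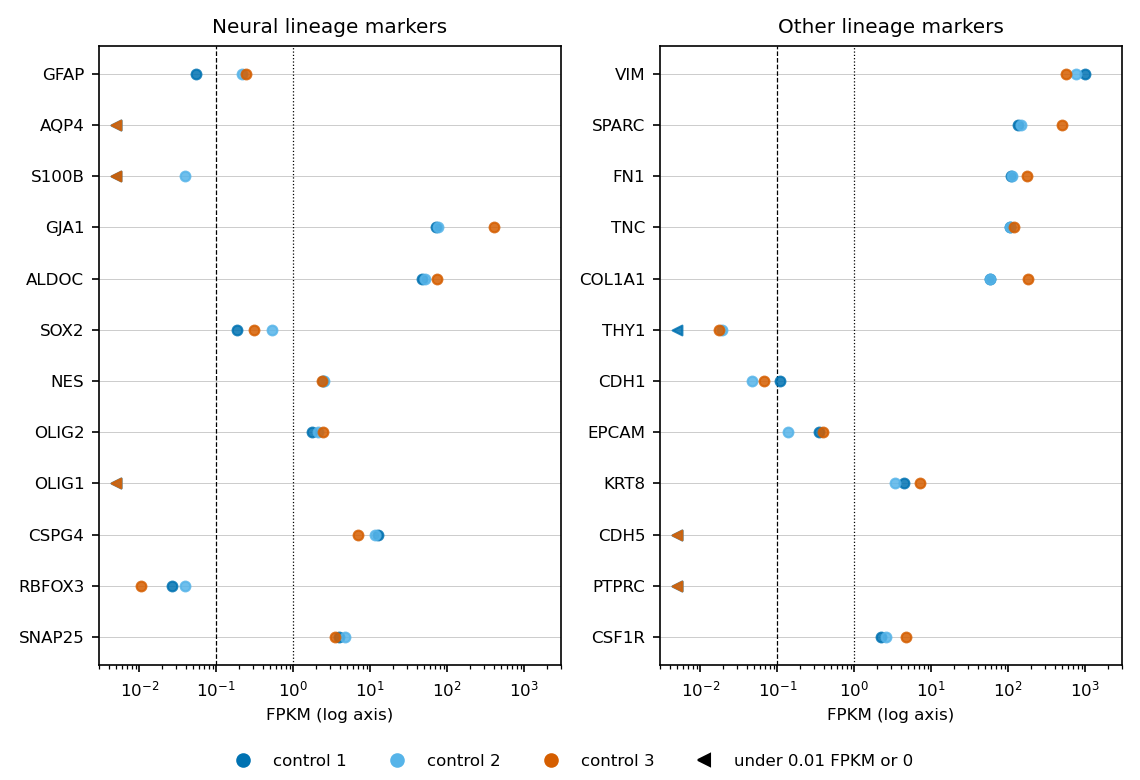
FPKM (log axis) of lineage markers in control replicates 1, 2 and 3, with a dotted line at 1 FPKM and a dashed line at 0.1; triangles pointing left stand for values under 0.01 FPKM or 0, and points at the same value cover each other. VIM, SPARC, FN1 and TNC lie above 100 FPKM in every library, while GFAP lies under 0.3 and AQP4, OLIG1 and PTPRC are at the left edge.

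Few markers of other cell types were expressed. In the epithelial list 1 of 14 was expressed, 8 were low or variable and 5 silent. The expressed member was KRT8, at 4.36, 3.42 and 7.23 FPKM, while CDH1, the epithelial cadherin, was at 0.109, 0.0464 and 0.0680 and EPCAM at 0.346, 0.136 and 0.395. In the endothelial list 1 of 9 measured genes was expressed, the receptor KDR at 2.35, 2.17 and 1.254 FPKM, and CDH5, the cadherin of endothelial junctions, had 0, 0 and 1 counts. Of 14 genes on the immune list, which also held the haemoglobin gene HBB, 10 were silent, PTPRC, CD3E, ITGAM and HBB among them. The summed FPKM of this list was 3.79, 3.92 and 18.1. Its 2 expressed members were CSF1R at 2.23, 2.61 and 4.75 FPKM and TMEM119 at 1.26, 1.09 and 12.9, both highest in replicate 3. TMEM119 marks microglia in brain and is also made by bone-forming cells. PMP22, a myelin protein that many cell types make, was the expressed member of 8 melanocyte and Schwann markers, at 55.1, 59.5 and 55.7 FPKM. Of 8 muscle markers and 13 pluripotency and germ line markers 0 were expressed, and 5 and 9 were silent.

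**Figure D3:**
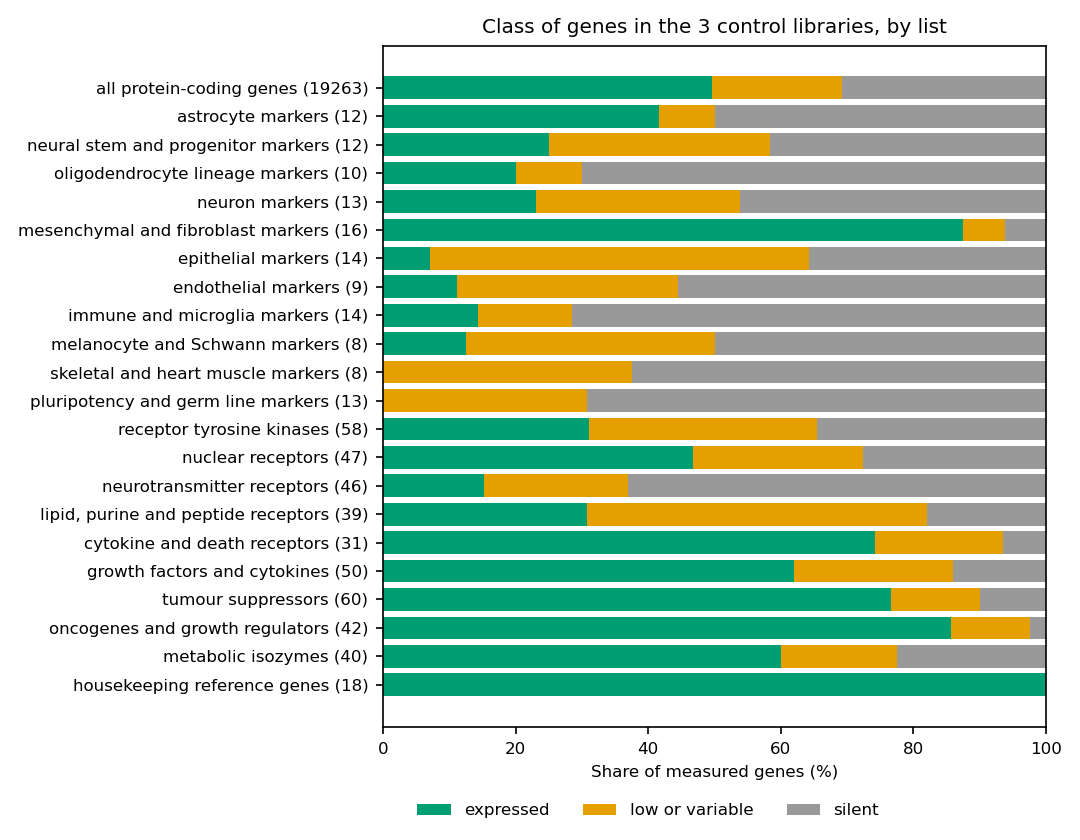
Share of measured genes (horizontal axis, percent, from 0 to 100) that were expressed, low or variable, or silent in the 3 control libraries, for all protein-coding genes and each list, with the number of genes in brackets. The mesenchymal list stands at 14 of 16 expressed, and the neural, endothelial, immune and muscle lists lie under the 49.7% of all protein-coding genes.

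Receptor tyrosine kinases, which pass growth factor signals across the membrane, were expressed in 18 of 58 cases, and 20 were silent. AXL, the receptor for the ligand GAS6, was the highest at 67.4, 69.9 and 75.1 FPKM (70.8 ± 3.93, SD, n = 3), and the 3 libraries lay within a ratio of 1.13. GAS6 itself was at 4.06, 2.98 and 5.21 FPKM. Next came FGFR1 at 21.4, 23.7 and 32.1 FPKM, the receptor of hepatocyte growth factor MET at 14.7, 16.2 and 26.4 and the ephrin receptor EPHA2 at 9.62, 7.99 and 11.1. HGF, the ligand of MET, was low at 0.264, 0.436 and 0.435 FPKM. EGFR was at 5.95, 6.24 and 6.59 FPKM (6.26 ± 0.320, SD, n = 3) and IGF1R at 1.72, 1.79 and 1.68, both among the members that agreed. PDGFRB, at 2.94, 2.84 and 8.29, and the collagen receptor DDR2, at 5.44, 6.27 and 16.7, were highest in replicate 3. PDGFRA was low or variable, at 0.580, 0.751 and 1.76 FPKM. Silent members in list order were ERBB4, INSRR, KIT and FLT3, and FLT3, FLT4, FGFR2, EPHA8 and RET had 0 counts in every library.

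Cytokine and death receptors were expressed more often, 23 of 31 measured, with 2 silent. TNFRSF12A, the receptor of the cytokine TWEAK, was at 163, 141 and 37.7 FPKM, the decoy receptor TNFRSF10D at 68.7, 82.4 and 40.1, TNFRSF1A at 68.0, 66.4 and 75.8 and the death receptor TNFRSF10B at 26.7, 27.6 and 26.9. TNFRSF1A and TNFRSF10B agreed between libraries and the other pair was lowest in replicate 3. IL13RA2, a decoy receptor of interleukin-13 known from glioma, was at 3.96, 3.62 and 3.92 FPKM. IL2RG and CNTFR were silent.

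Receptors for neurotransmitters were mostly silent, with 7 of 46 expressed and 29 under 0.1 FPKM, 14 of them at 0 counts in every library. The adrenergic receptor ADRA1B was the highest, at 7.11, 9.16 and 10.7 FPKM, followed by the GABA receptor subunit GABRA3 at 5.84, 5.25 and 13.1, the serotonin receptor HTR7 at 2.05, 2.65 and 3.26 and the glycine receptor subunit GLRB at 1.32, 2.47 and 3.92. The glutamate receptor subunits GRIA1, GRIA2, GRIA4 and GRIN1 were silent. At a threshold of 2 FPKM 3 of the list were expressed.

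Of 39 measured receptors for lipids, purines and peptides 12 were expressed and 7 silent. BDKRB1, the inducible bradykinin receptor, was at 44.7, 35.9 and 8.89 FPKM, and the adenosine receptor ADORA2B at 21.1, 21.8 and 17.4. ADGRE5, an adhesion receptor that the list also held, was at 11.9, 14.1 and 9.38 FPKM. The prostaglandin receptor PTGER2 was at 5.65, 5.70 and 15.0. Silent members were LPAR3, P2RY2, P2RX5 and ADORA2A. At 0.5 FPKM 20 of this list were expressed.

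Nuclear receptors, transcription factors that bind hormones and lipids, were expressed in 22 of 47 measured cases, close to the background of all protein-coding genes, and 13 were silent. NR1H2, which senses oxysterols, was at 41.1, 39.3 and 30.2 FPKM, the clock repressor NR1D1 at 25.1, 26.0 and 24.1, NR2F6 at 23.2, 23.0 and 20.04 and ESRRA at 22.9, 22.5 and 13.9. The glucocorticoid receptor NR3C1 was at 8.57, 8.01 and 12.9 FPKM. NR1H4, NR1I2 and HNF4A were silent, as were the oestrogen and progesterone receptors ESR1, ESR2 and PGR.

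Secreted growth factors and cytokines were expressed in 31 of 50 cases and 7 were silent. The chemokine CXCL8 was at 115, 117 and 120 FPKM (118 ± 2.62, SD, n = 3), VEGFB at 94.4, 87.5 and 65.3, TGFB1 at 85.7, 83.1 and 106 and pleiotrophin, PTN, at 74.1, 63.8 and 91.6. CXCL8 agreed within a ratio of 1.06, while the inflammatory cytokine IL1B was at 68.1, 67.8 and 5.91 FPKM, a ratio of 11.4. AREG, PDGFB, PDGFD and IGF1 were silent.

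Tumour suppressor genes were expressed in 46 of 60 cases, 6 were silent and 8 low or variable. The highest were CDKN1A, an inhibitor of cyclin-dependent kinases, at 136, 165 and 305 FPKM, the phosphatase subunit PPP2R1A at 57.1, 59.3 and 54.5, the chromatin remodeller SMARCB1 at 45.0, 41.3 and 33.4 and the histone chaperone DAXX at 33.8, 35.5 and 28.7. RB1 (chromosome 13, 48303726 to 48599436, plus strand) was at 5.69, 5.13 and 3.92 FPKM and NF1 at 1.88, 2.10 and 3.45. RB1 was lowest and NF1 highest in replicate 3. A message level says nothing of whether the protein is intact. ATM, BRCA2, TET2, DNMT3A, PTCH1, WT1, CDH1 and CDKN2A were low or variable.

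The 6 silent members were CDKN2B, CDKN2C, DCC, MTAP, MGMT and TUSC3. MGMT, the enzyme that removes alkyl groups from guanine in DNA and whose promoter is shown above, had 2, 0 and 0 counts, and the exact Poisson 95% interval in replicate 1 reached 0.136 FPKM. TUSC3 had 3, 0 and 6 counts. CDKN2B and CDKN2C, inhibitors of CDK4 and CDK6, and MTAP, an enzyme of methionine salvage, had 0 counts in every library. For CDKN2B this allows up to 0.0475, 0.0403 and 0.0370 FPKM and for MTAP up to 0.0132, 0.0112 and 0.0103, on the exon length of GENCODE release 29. Such intervals and limits cover counting error only.

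**Figure D4:**
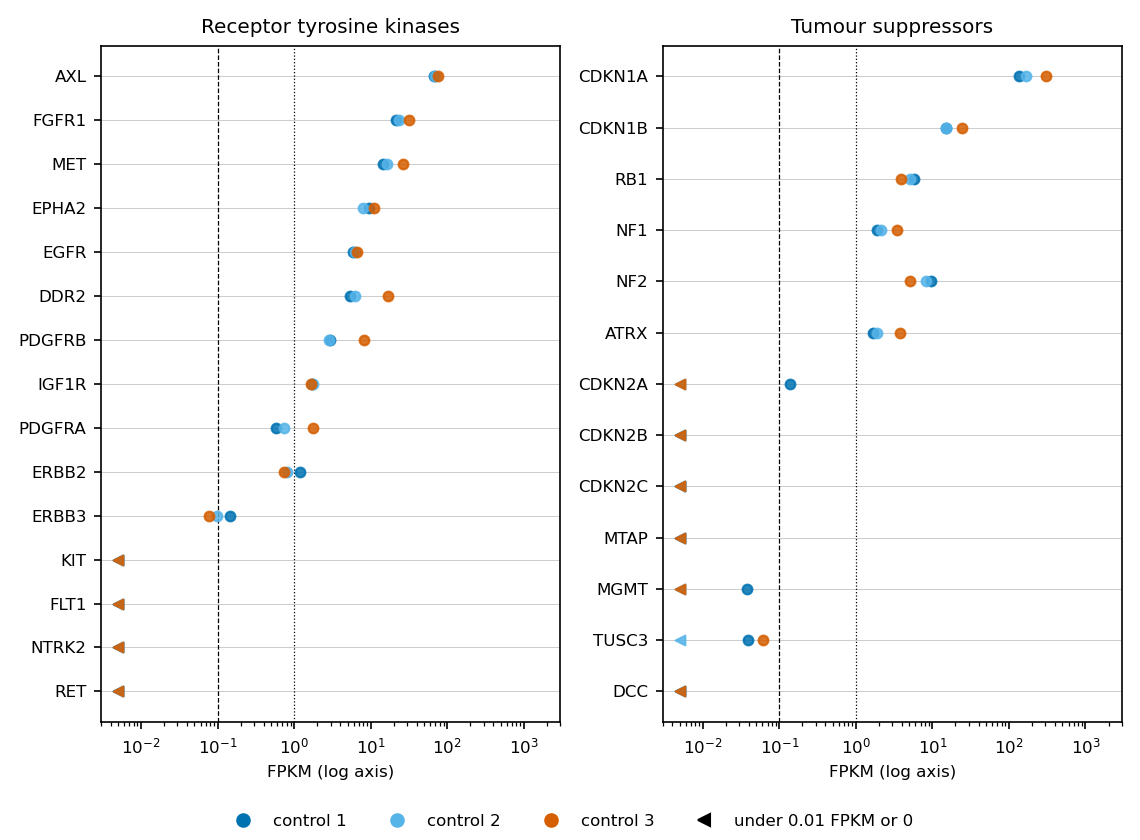
FPKM (log axis) of receptor tyrosine kinases and tumour suppressors in control replicates 1, 2 and 3, with a dotted line at 1 FPKM and a dashed line at 0.1; triangles pointing left stand for values under 0.01 FPKM or 0, and points at the same value cover each other. AXL lies near 70 FPKM in all libraries, and CDKN2B, CDKN2C, MTAP and DCC are at the left edge in every one.

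U87 is known for a homozygous deletion at the CDKN2A locus on chromosome 9. CDKN2A (21967753 to 21995301, minus strand), which encodes the inhibitors p16 and p14ARF, had 9, 0 and 0 counts. All protein-coding genes from MLLT3 to DMRTA1, 25 genes over 2.11 Mb of GRCh38 chromosome 9 (20341665 to 22455740), had 13, 0 and 0 counts in sum. Of these 16 were interferon genes, which most unstimulated cells do not transcribe, but the stretch also held MTAP, FOCAD, HACD4, KLHL9 and MLLT3. The 13 counts of replicate 1 were 9 in CDKN2A, 2 in FOCAD and 2 in KLHL9. The same library also held 137 counts of ALB, serum albumin, against 5 and 7 in the others, and 45 of the epithelial keratin KRT18, against 12 and 5. Other epithelial and liver transcripts were highest in replicate 3, such as KRT8 at 325, 300 and 692 counts and SERPINA1 at 355, 419 and 858. Whether the 13 counts share a source with those of ALB and KRT18 was not tested. Within 3 Mb of CDKN2A, the gene itself included, 4 of 34 protein-coding genes were expressed and 25 silent. On the side of lower coordinates SLC24A2, 2.33 Mb away, was low at 0.256, 0.165 and 0.297 FPKM, as were ACER2 and PLIN2. Beyond SLC24A2 the ribosomal protein gene RPS6, 2.60 Mb away, was at 347, 291 and 176 FPKM and HAUS6 at 3.98, 4.91 and 3.43. On the other side ELAVL2, at 1.78 Mb, was at 0.823, 0.788 and 0.855 FPKM, with IZUMO3 beyond it at 0 counts. The closest 4 protein-coding genes on the lower side, IFNA1, IFNE, MTAP and a gene with no symbol, had 0 counts, as did CDKN2B and DMRTA1 on the other.

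CDKN2C lies on chromosome 1 (50960745 to 50974633, plus strand), and its neighbours were looked at after its values were seen. Of the 43 protein-coding genes within 3 Mb, CDKN2C included, 25 were expressed and 14 silent. ELAVL4, DMRTA2 and C1orf185 had 0 counts in every library and FAF1, 0.269 Mb from CDKN2C, had 1, 1 and 0. RNF11, at 0.287 Mb on the side of higher coordinates, was at 32.8, 34.5 and 54.8 FPKM. Counts of RNA alone cannot tell a gene that is absent from one that is not transcribed.

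**Figure D5:**
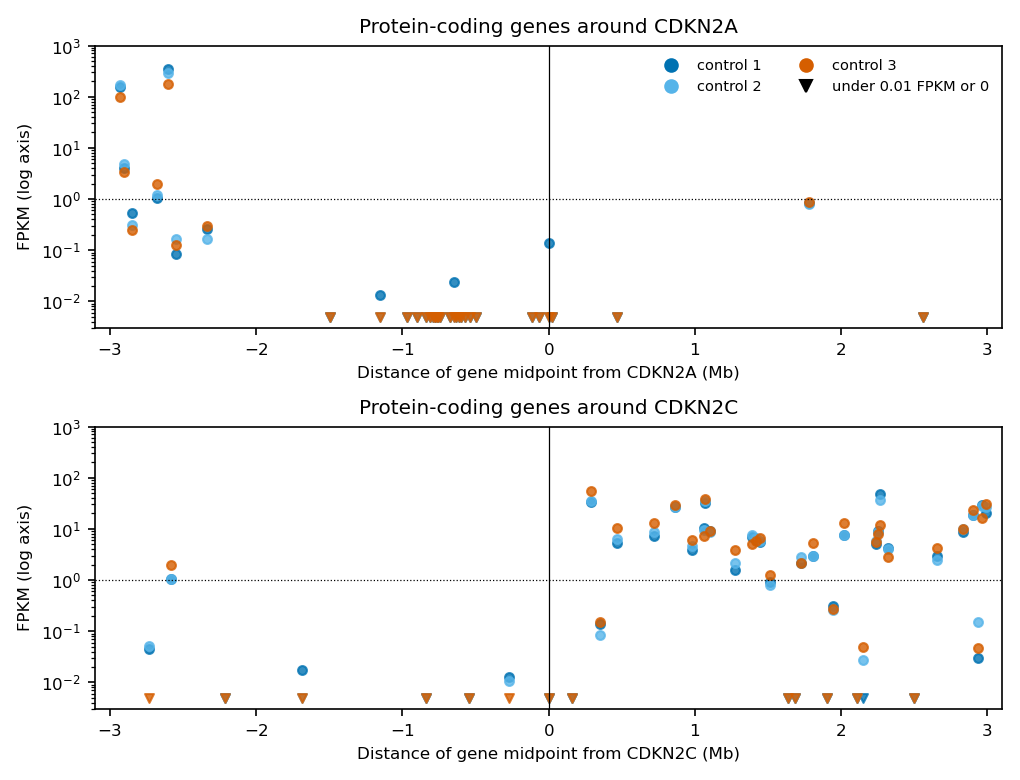
FPKM (log axis) of protein-coding genes by distance of their midpoint from CDKN2A (upper plot) and CDKN2C (lower plot), in Mb, for control replicates 1, 2 and 3, with a dotted line at 1 FPKM; triangles stand for values under 0.01 FPKM or 0. The genes within 1.5 Mb below CDKN2A lie at the bottom edge in replicates 2 and 3, with CDKN2A, FOCAD and KLHL9 above 0 in replicate 1, and in the lower plot RNF11 at 0.287 Mb and EPS15 at 0.469 Mb are above 1.

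Oncogenes and growth regulators were expressed in 36 of 42 cases. JUN was at 221, 205 and 156 FPKM, CCND1, the cyclin that activates CDK4 and CDK6, at 82.6, 96.8 and 57.3, the survival protein MCL1 at 66.2, 65.6 and 72.3 and IDH2 at 50.7, 52.2 and 64.5. MYC was at 20.7, 23.2 and 55.6 FPKM and CTNNB1, beta-catenin, at 23.2, 34.7 and 60.9. Of the 36 expressed, 12 differed at least 2-fold between libraries, 10 of them highest in replicate 3. Over all expressed genes 18.3% differed that much, and 833 of those 1949 were highest in replicate 3. MYCN had 0 counts in every library, and TERT, the catalytic subunit of telomerase, was low at 0.116, 0.247 and 0.0680 FPKM.

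Of 40 metabolic isozymes 24 were expressed and 9 silent. GAPDH, ENO1, LDHA (1030, 1062 and 796 FPKM) and ALDOA (958, 892 and 701) had the highest levels, and the muscle pyruvate kinase PKM was at 784, 885 and 862. Among the other isozymes of the list, GAPDHS, PKLR, PGK2, PGAM2, HK3 and CKMT1A had 0 counts in every library, and SLC2A4, the insulin-regulated glucose carrier, had 5, 1 and 2.

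Agreement between the 3 libraries was judged on genes expressed in all of them. The highest library was at most 25% above the lowest for 3033 of 10647 expressed genes (28.5%), and 1949 (18.3%) differed at least 2-fold. Over the same genes, 9209 lay within 25% between replicates 1 and 2, against 3825 between 1 and 3 and 4200 between 2 and 3. At least 2-fold apart were 67, 1783 and 1288 genes in these pairs. Replicate 3 was the highest or the lowest library in 98.1% of those 1949. Agreement was rarer at the top of the range, with 28.2% of genes agreeing at a median of 1 to 10 FPKM and 12.9% of the 31 at 1000 or more. Among protein-coding genes that differed at least 2-fold, the 736 highest in replicate 3 had a median length of 5139 bases and the 856 lowest there one of 2745. The median was 4529 for all expressed protein-coding genes and 4952 for those that agreed. The genes highest in replicate 3 had a median FPKM of 4.16 and those lowest there one of 16.2. The part of gene length or level in the differences between libraries was not tested.

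The 8 protein-coding genes that agreed best, at a median of at least 10 FPKM, lay within a ratio of 1.02. FBXL15, an adaptor of a ubiquitin ligase, was at 11.4, 11.3 and 11.2 FPKM, the chaperone BAG6 at 31.5, 31.4 and 30.8 and IST1, of the membrane-cutting ESCRT complex, at 30.0, 30.3 and 29.8. KIAA2013, PDHB, FAM219A, LMAN2 and IMPDH1 completed this set. Exons of FBXL15 are overlapped on the opposite strand over 27.7% of their length.

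The widest ratios were also ranked among protein-coding genes only, and identifiers without a symbol or annotation here, such as ENSG00000265150 with 1429, 745 and 109 counts, and the pseudogene CD24P4 reached ratios in the same range. MMP3, a secreted protease of the matrix, was at 79.9, 89.4 and 4.19 FPKM, from 2438, 3209 and 164 counts. SERPINB2, an inhibitor of plasminogen activators, was at 32.1, 33.8 and 2.80 FPKM, the protease inhibitor TFPI2 at 539, 500 and 45.0 and the metallothionein MT1M at 15.9, 19.2 and 1.22. Together with IL1B, CSTB and MRPL12 these were the lowest in replicate 3, while MTPN was highest there, at 9.48, 17.2 and 80.4 FPKM. Replicates 1 and 2 lay within 1.3-fold of each other for those 7, and at 1.82-fold for MTPN. The levels of the 7 are therefore those of a pair of libraries and not of all 3.

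Genes often used as references did not all agree. All 18 on the list were expressed, 6 agreed within 25% and 1, the isomerase PPIA, differed at least 2-fold, at 689, 571 and 314 FPKM. The agreeing share, 33.3%, was near the 28.5% of all expressed genes. The share that differed at least 2-fold, 5.56%, was under the 18.3% of all expressed genes. ACTB, EEF1A1 and POLR2A were among those that agreed. TBP was at 9.78, 11.7 and 8.65 FPKM, a ratio of 1.33, and B2M at 531, 530 and 861, highest in replicate 3.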

How the data were processed

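Total RNA of U87 cells was sequenced. The submitters' processing notes name hg38 as the build, HISAT2 2.0.5 and featureCounts 1.5.0-p3, without roles. No source says which annotation was used, whether counting used strand, or how FPKM was made. Each deposited table gives raw counts and FPKM for every gene, per the file headers. FPKM was proportional to the count of a gene, and the gene length it implied was the same in each library up to a constant (1, 1.04 and 1.10). Depth was 15580000 to 18130000 counts. A count of 0 was taken to allow up to 3 counts, a fixed limit at any depth. The exact Poisson 95% interval reaches higher, to 0.0395 FPKM against 0.0321 for AQP4 in replicate 1.

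Levels are the deposited FPKM. CPM used library sizes scaled by TMM in edgeR 4.0.16 (R 4.3.3), after filterByExpr with a minimum count of 10, which also gave the coefficient of variation. No test was made, since there is 1 group. Symbols came from a table of identifiers, positions from GENCODE release 29 (GRCh38), which does not contain 5567 of 57905 identifiers; 4 listed genes were not matched and not analysed, and some members are not reported here by name. The members and the 21 lists were chosen with earlier results of these data known. Named genes were the 20 highest and 5 highest not protein-coding, up to 4 highest and 4 silent members per list, the neighbours of CDKN2A, and the 8 closest and 8 widest in ratio; others were added after their values were seen. Scripts were tested on simulated data. Alternatives were other thresholds, TPM, other scaling, count minimums and each library left out.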

Additional observations from a re-analysis of the deposited data

How the results depend on the processing

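Counts of expressed and silent genes stayed within 1.5-fold of those reported under every threshold, TPM and each library left out. The number of expressed genes that agreed was 3903 to 9471 with a library left out, the largest value without control replicate 3, and 5846 at a ratio of 1.5. The number that differed at least 2-fold was 88 to 1817 with a library left out, the smallest without replicate 3. The coefficient of variation ran from 0.0918 without replicate 3 to 0.367 without replicate 2. Without mitochondrially encoded genes the 100 highest genes took 30.6% of the summed FPKM, and 37.4% to 41.7% with a library left out. RLE factors, total counts and the deposited FPKM in place of TMM gave 2889 to 3045 agreeing genes. Expressed members per list moved by over 1.5-fold in 4 of 21 lists at 2 FPKM, in 2 at 0.5 FPKM and in 2 with TPM. No paired analysis was possible because the control libraries form 1 group and no result comes from a test. FPKM of genes with few counts is limited by depth, and levels of near-identical copies by counting.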

Other observations

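Several transcripts typical of the liver, looked at after the values were seen, had most of their counts in control replicate 1. ALB, serum albumin, had 137, 5 and 7 counts in replicates 1, 2 and 3, APOA1 had 30, 3 and 0, HP 17, 0 and 1, TF 15, 0 and 3 and TTR 6, 0 and 0. Of 15 liver transcripts listed 11 were highest in replicate 1, while SERPINA1, at 355, 419 and 858 counts, and APOH, at 44, 59 and 112, were highest in replicate 3. Some of the 11 rest on few counts, such as APOB with 1, 0 and 0 and FGA with 4, 1 and 0, and AFP was nearly even at 44, 32 and 35. Of all expressed genes that differed at least 2-fold in CPM, 46.5% were highest in replicate 1. That share is no direct background, because the 15 were ranked by raw counts and most were not expressed in all libraries. The share among genes with as few counts was not determined. The 15 together had 666, 525 and 1017 counts. The epithelial keratin KRT18 had 45, 12 and 5 counts, and KRT14 22, 10 and 3. Other epithelial markers were highest in replicate 3, such as KRT8 at 325, 300 and 692 counts, EPCAM at 13, 6 and 19 and CLDN4 at 26, 18 and 56. The 13 counts from the CDKN2A stretch came from replicate 1. Whether the counts of that library share a source was not tested.

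Near-identical genes were counted unevenly. BOLA2B on chromosome 16 had 1641, 33 and 138 counts while its copy BOLA2 had 0 in every library, and SERF1A on chromosome 5 had 5, 233 and 1 counts against 10, 13 and 28 for SERF1B. Levels of such genes rest on how reads that fit both copies were assigned, which was not tested.

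The identifier ENSG00000117289, which has no symbol in the tables used here, had 7943, 10512 and 96569 counts, or 147, 165 and 1393 FPKM, with replicate 3 the highest. Replicate 3 was also the highest for the connective tissue growth factor CCN2, at 323, 429 and 3247 counts, and for HMGCS1, an enzyme of sterol synthesis, at 408, 656 and 4270.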
